A study of Mus musculus with 18 samples.

Results

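The Krüppel-like factors (KLFs) are zinc finger transcription factors, and 10 of them that are known from adipocytes, Klf3, Klf4, Klf5, Klf6, Klf7, Klf9, Klf10, Klf11, Klf13 and Klf15, were taken from the count table by exact gene symbol. All 10 members were among the 17672 genes of the table, and 9 of them were among the 10178 genes with enough counts to be tested. RNA came from an immortalised mouse brown adipocyte line with a stable shRNA against Abhd5. ABHD5 is the activator of the adipose triglyceride lipase ATGL. The same line carries an mCherry-tagged ABHD5 that the shRNA cannot target and that doxycycline (Dox, 1 µg/ml for 24 to 48 h) switches on. Cells without Dox carry the label ABHD5 KD and cells with Dox the label WT. Either state received for 3 h the vehicle DMSO, isoproterenol (ISO, 10 nM), an agonist of all β-adrenergic receptors, or SR-3420 (20 µM), a synthetic ABHD5 ligand that starts lipolysis without the receptor. This gave 6 groups of 3 libraries, 18 in all, from independent experiments by the study's methods. All groups carry the shRNA and the construct, they come from a single line, and no Dox-treated cells without the construct were analysed here, so an effect of Dox itself and one of the induced ABHD5 cannot be told apart.

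KLFs bind GC-rich and CACCC elements through zinc fingers at the carboxyl end that are much alike between members, and they differ in the parts outside the fingers, which recruit co-activators or co-repressors. Klf3 belongs to a branch that binds the co-repressor CtBP, Klf9, Klf10, Klf11 and Klf13 to a branch that binds SIN3A and its histone deacetylases, and Klf4, Klf5, Klf6 and Klf7 to a branch that often works with acetyltransferases. In fat cell development, Klf4 and Klf5 act early, while Klf6, Klf9 and Klf15 promote differentiation, and Klf3 and Klf7 restrain it. Klf15 is also a regulator of amino acid and glucose metabolism and is induced by fasting and by glucocorticoids.

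The sequences just upstream of the members that responded most are shown first, as context for the counts of these genes. RefSeq held a promoter window for 8 of the 10 members (table on GRCm38.p6), and the 250 bases before the start were located by a single exact match on mm9, the build of the count table. The window of Klf15 lies at chr6:90412320-90412569 (plus strand), that of Klf3 at chr5:65194510-65194759 (plus strand), that of Klf13 at chr7:71083802-71084051 (minus strand) and that of Klf11 at chr12:25335986-25336235 (plus strand). They are written 5′ to 3′ on the strand of the gene. Capitals mark matches on either strand to the core of the cAMP response element TGACG, the CACCC box CACCC, the GC box GGGCGG and the E-box CACGTG, and where matches overlap, as in Klf3, Klf11 and Klf13, they form a single run of capitals.
Klf15: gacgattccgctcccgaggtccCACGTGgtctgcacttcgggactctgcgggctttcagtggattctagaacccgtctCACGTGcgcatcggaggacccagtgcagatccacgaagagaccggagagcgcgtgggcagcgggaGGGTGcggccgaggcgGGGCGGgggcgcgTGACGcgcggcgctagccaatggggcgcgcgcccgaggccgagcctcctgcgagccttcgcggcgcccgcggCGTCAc
Klf3: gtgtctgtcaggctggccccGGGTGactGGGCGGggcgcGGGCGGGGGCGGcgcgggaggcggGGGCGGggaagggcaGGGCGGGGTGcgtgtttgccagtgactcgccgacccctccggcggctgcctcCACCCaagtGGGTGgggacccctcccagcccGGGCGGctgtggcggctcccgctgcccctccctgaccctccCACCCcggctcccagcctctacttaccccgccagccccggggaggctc
Klf13: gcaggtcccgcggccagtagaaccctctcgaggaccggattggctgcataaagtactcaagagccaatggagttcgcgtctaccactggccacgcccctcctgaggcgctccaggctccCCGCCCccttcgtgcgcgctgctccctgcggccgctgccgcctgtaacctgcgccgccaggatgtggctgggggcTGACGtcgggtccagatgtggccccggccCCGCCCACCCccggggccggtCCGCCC
Klf11: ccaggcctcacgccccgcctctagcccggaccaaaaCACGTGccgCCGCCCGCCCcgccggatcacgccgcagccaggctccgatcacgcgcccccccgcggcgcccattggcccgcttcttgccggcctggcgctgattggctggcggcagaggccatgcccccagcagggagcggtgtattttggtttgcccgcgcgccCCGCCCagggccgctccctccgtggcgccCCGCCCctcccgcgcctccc
Klf15 held 2 TGACG cores, with their first bases 78 and 6 bases before the RefSeq start, besides 2 E-boxes, 1 GC box and 1 CACCC box. Klf3 held 5 CACCC boxes and 6 GC boxes with neither of the other motifs, Klf13 held 1 TGACG core, 1 CACCC box and 3 GC boxes, and Klf11 held 4 GC boxes and 1 E-box. Among the 8 windows, 4 contained a TGACG core against 17.8% of all 32851 windows of this length, 5 a CACCC box against 52.0%, 7 a GC box against 32.7% and 4 an E-box against 6.02%. The matches are a description of letters and were not examined for binding.

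Libraries held between 689910 and 1956565 counts. The study's methods name counting over genes. The length counted was shorter than the gene in each member, however, and genes without introns, such as Cebpa and Junb, were missing from the table. For the members it ran from 2293 to 73625 bases, or 42.9% to 85.9% of the gene, and in 5 of them it lay within 5% of the gene length less its annotated exons. The share of reads from unspliced RNA in these counts was not determined. Values below are CPM, that is counts scaled to the library total corrected by TMM factors (mean ± SD, n = 3 unless stated). Abhd5, the target of the shRNA, gave 52.6 ± 4.71 CPM in DMSO without Dox and 574 ± 86.1 CPM with Dox, as the labels would have it. The counts do not separate the construct from the endogenous gene. It also rose with ISO without Dox, to 149 ± 21.9 CPM (2.84-fold, adjusted p = 3.34e-07), so that group was not at the level of the DMSO cells. SR-3420 with Dox replicate 1 stood apart, with 35.6% of its counts in its top 10 genes against 16.3% to 26.5% in the other 17 libraries, and the members' responses to SR-3420 with Dox are also given without it. Of the adipocyte genes, Adipoq and Plin1 had at least 302 and 441 CPM in every library. Cidec, Pnpla2 and Pparg had at least 190, 431 and 220 CPM. Fabp4 was lower, at 10.1 to 249 CPM, with its lowest value in DMSO with Dox. Among the brown adipocyte genes, which summed to 84.3 to 1234 CPM, Dio2 had no count in any library and Ucp1 had 0 to 4.39 CPM in all groups without ISO. The 5 macrophage genes measured, of which 1 was tested, Cd68, summed to 3.75 to 20.9 CPM. Cd68 had 2.25 to 15.9 CPM, with counts in every library, and Mrc1 had 0 to 4.97 CPM. Itgam, Csf1r and Ptprc had at most 3.04 CPM. The 5 endothelial genes summed to 5.34 to 25.8 CPM, again with 1 tested, Tek, which rose with ISO (log2 fold changes of 1.25 without and 1.13 with Dox), and Tie1 had no count at all.

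Together the 10 members took 0.0216% to 0.0427% of the counts of a library. In the 6 libraries treated with ISO this share was 0.0216% to 0.0261%, below the range of 0.0295% to 0.0427% in the other 12. Klf15 made up much of it, with 87 to 565 counts per library, so the share largely describes that gene. Since these are bulk samples, fewer cells with a transcript and less transcript per cell cannot be told apart.

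Per kilobase of counted sequence, Klf15 was the highest member and Klf7 and Klf5 were the lowest. Over the 18 libraries Klf15 had 16.7 ± 5.38 CPM per kb (SD, n = 18), Klf10 6.65 ± 1.72, Klf4 3.57 ± 1.68, Klf11 3.23 ± 2.55 and Klf6 1.79 ± 0.983. Lower levels were found for Klf3 (1.13 ± 0.353), Klf9 (0.835 ± 0.276), Klf13 (0.570 ± 0.200), Klf7 (0.120 ± 0.0456) and Klf5 (0.0881 ± 0.110). The steps from Klf15 to Klf10, from Klf10 to Klf4 and from Klf13 to Klf7 exceeded the SD of either neighbour, and the other steps did not. Between Klf13 and Klf7 not even the ranges met, with 0.293 CPM per kb in the lowest Klf13 library and 0.235 in the highest Klf7 library.

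**Figure D1:**
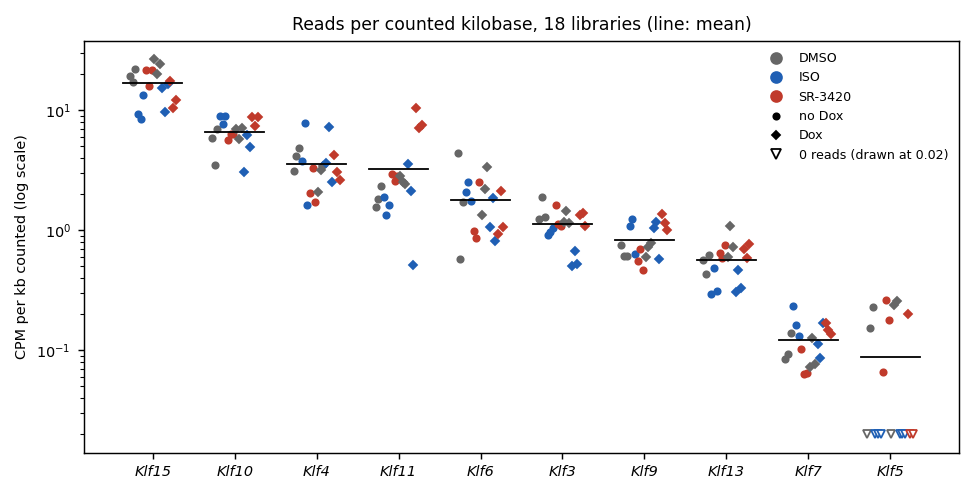
Level of each member in each of the 18 libraries, in CPM per counted kilobase on a log axis, ordered by the mean over all libraries (horizontal line). Colours give the treatment, circles are libraries without Dox and diamonds libraries with Dox, and open triangles mark libraries without a count. Klf15 has a mean of 16.7, followed by Klf10 at 6.65, and Klf5 has no count in 10 of the 18 libraries.

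Klf5, which acts downstream of C/EBPβ in adipogenesis (NM_009769, mm9 chromosome 14, 99697910 to 99712628, plus strand), had 16 counts over all libraries and at most 4 in any of them, and was not tested. None was found in the 6 ISO libraries, where a count of 0 allows up to 3 counts per library by counting error alone. With DMSO or SR-3420 it was between 0 and 2.32 CPM, and whether Klf5 differed with ISO was not tested.

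To ask how the family responded to the β-adrenergic signal in the cells without Dox, ISO was compared with DMSO. Klf15 fell, Klf10 rose, and the other 7 tested members did not pass. These 2 of 9 members stood against 28% of all genes tested that passed in this comparison (edgeR quasi-likelihood test, Benjamini-Hochberg adjusted p of 0.05 or less over all genes), 14.5% higher and 13.5% lower. Counting replicates that did not overlap, 1 member was higher (20% of all genes) and 2 were lower (19.8%). None passed with the study's added limit of a log2 fold change of 1 in size, against 10.9% of all genes. The median log2 fold change of the 9 members was -0.19, beside -0.01 for all genes tested.

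Klf15 (NM_023184, mm9 chromosome 6, 90412620 to 90425203, plus strand) had 198, 175 and 225 CPM in the DMSO libraries and 95.1, 86.3 and 138 CPM in the ISO libraries. All ISO values were below all DMSO values. The log2 fold change was -0.89 (SE 0.20, 95% interval -1.31 to -0.48, adjusted p = 0.00152), a level 0.539 times that of the control. It passed in each of the 6 fits that left out a library, at -1.15 to -0.76.

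Klf10, a gene first found as rapidly induced by TGF-β (NM_001289471, mm9 chromosome 15, 38221219 to 38230466, minus strand), had 32.03, 19.04 and 37.5 CPM with DMSO and 48.6, 41.6 and 48.8 CPM with ISO. The groups did not overlap, although the third DMSO library came close to the lowest ISO library. Its log2 fold change was 0.62 (SE 0.23, adjusted p = 0.0460), just inside the threshold. It no longer passed without DMSO replicate 1 (0.66, adjusted p = 0.0858), without DMSO replicate 2 (0.42, adjusted p = 0.197), without ISO replicate 1 (0.58, adjusted p = 0.109) or without ISO replicate 3 (0.57, adjusted p = 0.124), and DESeq2 gave 0.62 with an adjusted p of 0.0790.

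Among the members that did not pass without Dox, the CtBP-binding repressor Klf3 (NM_008453, mm9 chromosome 5, 65194762 to 65221368, plus strand) had 20.5, 31.3 and 21.3 CPM with DMSO and 15.1, 15.9 and 17.3 CPM with ISO. All its ISO values were lower, but the log2 fold change of -0.55 (SE 0.27) had an adjusted p of 0.132. Klf13, a SIN3A-binding factor known for its control of Ccl5 in T cells (NM_021366, mm9 chromosome 7, 71031237 to 71083801, minus strand), was at 22.1 ± 3.95 CPM with DMSO and 14.8 ± 4.35 CPM with ISO, with overlapping groups and a log2 fold change of -0.60 (adjusted p = 0.141). Klf7 had 0.71 and Klf9 0.53 with adjusted p of 0.187 and 0.239, and Klf4, Klf6 and Klf11 lay between -0.24 and 0.08.

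**Figure D2:**
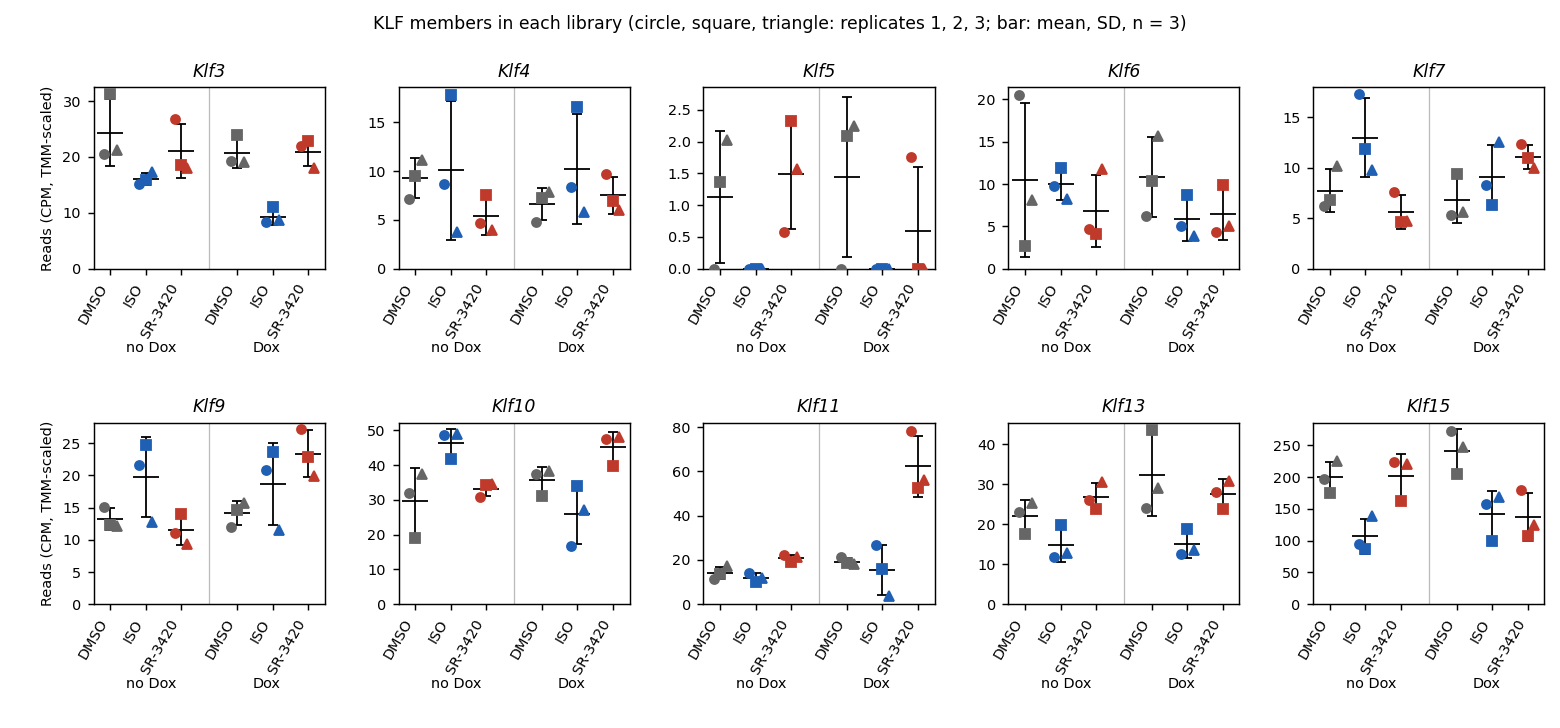
Level of each member in every library in CPM, by treatment, without Dox on the left and with Dox on the right of each panel. Points are libraries (circle, square and triangle are replicates 1, 2 and 3) and bars give the mean and SD (n = 3). Klf15 is lower with ISO in either state, Klf3 is lowest with ISO and Dox at a mean of 9.34 CPM, and Klf11 reaches 52.7 to 78.2 CPM with SR-3420 and Dox.

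With ABHD5 restored by Dox, ISO lowered 3 members, Klf3, Klf13 and Klf15, and raised none. This is 3 of 9 members where 32.5% of all genes tested passed, 16.4% higher and 16.1% lower. The median of the members was -0.47 and that of all genes tested -0.02. The same 3 members were those whose ISO libraries all lay below the DMSO libraries, against 21.4% of all genes, and none lay above, against 21.3%. With the added fold change limit 2 members passed, Klf3 and Klf13, against 13.1% of genes.

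Klf3 had 19.3, 23.9 and 19.1 CPM with DMSO and Dox, and 8.34, 11.0 and 8.66 CPM with ISO and Dox. The highest ISO library was well under the lowest DMSO library. The log2 fold change was -1.12 (SE 0.29, 95% interval -1.72 to -0.52, adjusted p = 0.00373), a level 0.460 times that of the control. Over the 6 fits without 1 library it was -1.24 to -1.02 and passed in all of them.

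For Klf13 the DMSO libraries with Dox were spread widely, at 24.1, 43.7 and 29.2 CPM, and the ISO libraries had 12.5, 18.9 and 13.5 CPM. No value of one group reached the other. The log2 fold change was -1.04 (SE 0.27, adjusted p = 0.00369), and it was -1.28 to -0.78 when single libraries were left out, each time passing. The largest DMSO value, 43.7 CPM, was that of replicate 2, which also had the highest ISO value of the 3.

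Klf15 had 272, 205 and 247 CPM with DMSO and Dox and 158, 100.03 and 168 CPM with ISO and Dox, again without overlap. Its log2 fold change of -0.78 (SE 0.19, adjusted p = 0.00257) differed from that without Dox by 0.11 (95% interval -0.46 to 0.69, adjusted p of the interaction 0.903).

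Klf10 was at 35.7 ± 3.85 CPM with DMSO and 25.8 ± 8.65 CPM with ISO in the cells with Dox, a log2 fold change of -0.47 (SE 0.23, adjusted p = 0.123), where it had been 0.62 without Dox. The ISO libraries spread from 16.7 to 33.9 CPM and overlapped with the controls. Without ISO with Dox replicate 2 the value was -0.71 (adjusted p = 0.0404), so that library decides the call. The difference between both responses, tested as the interaction of ISO and Dox, was -1.08 (SE 0.33, unadjusted p = 0.00251, adjusted p = 0.0771) and did not pass. No member passed this interaction with edgeR, fitted without a block for the replicate number, or with DESeq2, against 2.18% of all genes, and 1 of 9, Klf10, had an unadjusted p under 0.05, against 14.1%. Without ISO with Dox replicate 2 the interaction of Klf10 was -1.33 with an adjusted p of 0.0253. With a block for the replicate number the interaction of Klf10 passed at -1.08 (adjusted p = 0.0281). Not all pairs of same-numbered libraries correlated above 0.1 in this comparison.

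The differences of Klf3 and Klf13 between the states were smaller. The interaction was -0.57 (95% interval -1.39 to 0.26, adjusted p = 0.563) for Klf3 and -0.44 (95% interval -1.28 to 0.39, adjusted p = 0.676) for Klf13. Passing with Dox and not without it therefore does not show that these genes responded differently in the 2 states.

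The remaining members did not pass with ISO and Dox. Klf4, the early adipogenic and pluripotency factor (NM_010637, mm9 chromosome 4, 55540009 to 55545347, minus strand), ranged from 5.78 to 16.5 CPM in the ISO libraries, an SD of 5.62 around a mean of 10.2 CPM, and had a log2 fold change of 0.73 (SE 0.47). Klf11 was still more variable, with 26.7, 15.8 and 3.85 CPM under ISO and Dox against 21.2, 18.7 and 17.98 CPM in the controls. Klf6 had a value of -0.72 (SE 0.54), and Klf7 and Klf9 had 0.45 and 0.46.

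SR-3420 without Dox asks what the ABHD5 ligand does where its target is scarce. None of the 9 members passed with edgeR or DESeq2, where 0.766% of all genes did, and none had an unadjusted p under 0.05, against 8.77%. Klf15 was at 202 ± 34.1 CPM against 199 ± 24.9 CPM in DMSO, a log2 fold change of 0.01 (95% interval -0.38 to 0.40). The highest value was that of Klf11, at 0.56 (95% interval -0.16 to 1.28, adjusted p = 0.717), with 22.1, 19.2 and 21.2 CPM under SR-3420, all above the 11.6, 13.6 and 17.2 CPM under DMSO. Klf11 was the 1 member whose replicates did not overlap upwards (7.79% of all genes), and none did downwards (6.29%). The members' median was -0.16.

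With ABHD5 restored, SR-3420 raised Klf11 and lowered Klf15. These 2 of 9 members stood against 9.9% of all genes tested, 6.53% higher and 3.37% lower. Replicates without overlap were found for 4 higher members (13.6% of all genes) and 1 lower member (12.2%). The median of the members was 0.28, beside -0.01 for all genes tested.

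Klf11, which binds SIN3A and has been linked with PPARγ in the browning programme of human adipocytes (NM_178357, mm9 chromosome 12, 25336236 to 25347647, plus strand), had 21.2, 18.7 and 17.98 CPM with DMSO and Dox and 78.2, 52.7 and 55.9 CPM with SR-3420 and Dox. The lowest of these SR-3420 libraries was above every other library of the series, the next being an ISO library with Dox at 26.7 CPM. The log2 fold change was 1.67 (SE 0.28, 95% interval 1.08 to 2.25, adjusted p = 0.000162), a 3.17-fold higher level, and 99.5% of all genes tested had a lower log2 fold change. The highest value came from replicate 1, the library that stood apart, and without it the log2 fold change was 1.46 (adjusted p = 0.00352). It was also the single member past the log2 fold change limit of 1, against 3.1% of genes.

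Klf15 had 272, 205 and 247 CPM with DMSO and Dox and 180, 107 and 125 CPM with SR-3420 and Dox. All SR-3420 values were lower. The log2 fold change was -0.81 (SE 0.20, 95% interval -1.21 to -0.41, adjusted p = 0.00588), and without replicate 1 of SR-3420 it was -1.06 (adjusted p = 0.00167). ISO and SR-3420 share these DMSO libraries, and the values of Klf15 were 142 ± 36.8 CPM with ISO and 137 ± 38.0 CPM with SR-3420.

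Klf9, a glucocorticoid-induced factor that promotes adipogenesis (NM_010638, mm9 chromosome 19, 23215716 to 23241401, plus strand, with the microRNA Mir1192 inside it on the same strand), had 12.04, 14.6 and 15.7 CPM with DMSO and Dox and 27.2, 22.9 and 20.0 CPM with SR-3420 and Dox. The groups did not overlap, and the log2 fold change was 0.77 (SE 0.30, adjusted p = 0.107). Replicates with the same number deviated together in this comparison, and in a fit that blocked on this number Klf9 passed at 0.80 (adjusted p = 0.0482). Without SR-3420 replicate 1 it was 0.64 in the fit without the block (adjusted p = 0.325).

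Klf7, an inhibitor of adipogenesis (NM_033563, mm9 chromosome 1, 64082247 to 64167963, minus strand), overlaps the transcript Gm13748 on the other strand, and strand use in the counting was not stated. Its values were 5.30, 9.37 and 5.62 CPM with DMSO and Dox and 12.3, 10.9 and 9.99 CPM with SR-3420 and Dox, without overlap, at a log2 fold change of 0.77 (SE 0.40, adjusted p = 0.246). Klf10 was also higher in every SR-3420 library, at 47.5, 39.8 and 47.9 CPM against 37.6, 31.2 and 38.2 CPM, with a log2 fold change of 0.33 (95% interval -0.12 to 0.77, adjusted p = 0.399). Klf3 and Klf13, which fell with ISO, were at 0.03 and -0.17 with 95% intervals of -0.50 to 0.56 and -0.68 to 0.34. Klf4 and Klf6, the repressor of Dlk1 in preadipocytes (NM_011803, mm9 chromosome 13, 5860735 to 5869639, plus strand), had 0.28 and -0.62 with SEs of 0.51 and 0.54. Without SR-3420 replicate 1 the values were 0.68 for Klf7 (adjusted p = 0.456), 0.29 for Klf10, -0.01 for Klf3, -0.19 for Klf13, 0.05 for Klf4 and -0.40 for Klf6, and none of them passed.

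**Figure D3:**
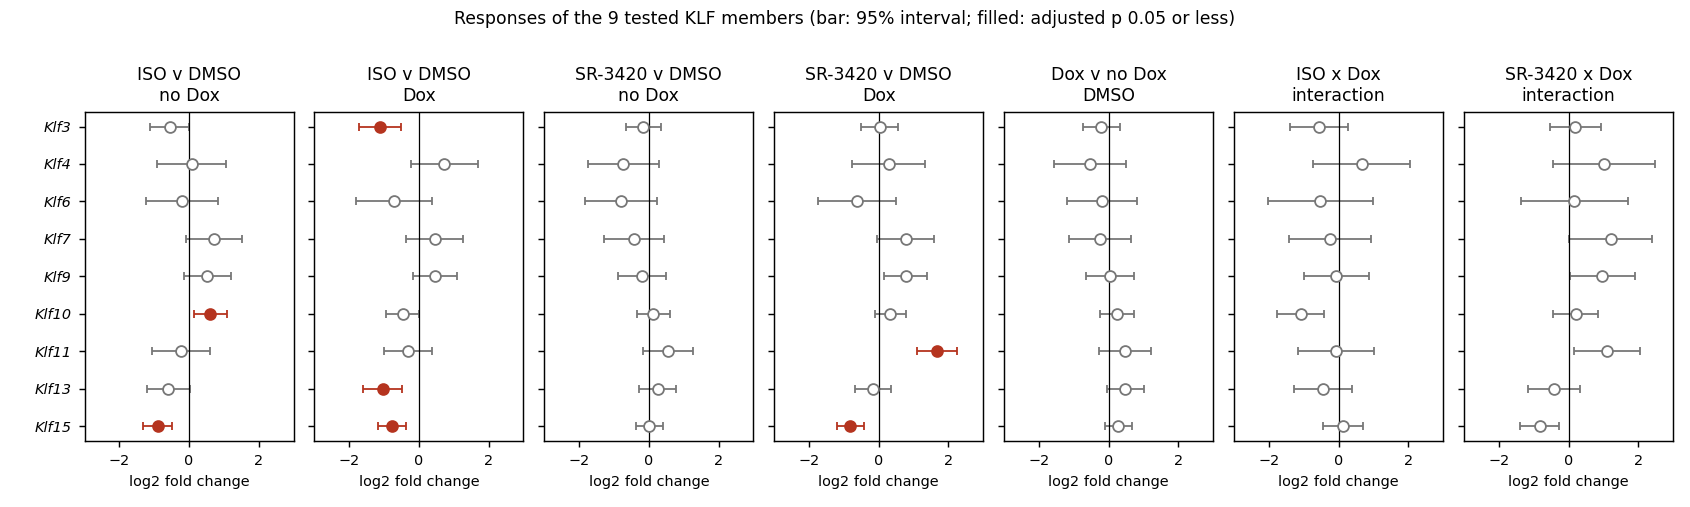
Log2 fold change of each of the 9 tested members in the 7 comparisons, with 95% intervals from the edgeR fit. Filled red points have an adjusted p of 0.05 or less. Klf15 is passing and negative in 3 comparisons, Klf11 at 1.67 is the largest value, and no point is filled in SR-3420 without Dox, in Dox alone or in the interactions.

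Whether the ligand's effect depended on Dox was tested as the interaction of SR-3420 and Dox. No member passed with edgeR, again without that block, or with DESeq2, against 0.757% of all genes tested, whereas 4 of 9 had an unadjusted p under 0.05, against 12.1% of all genes. Klf15 had -0.83 (95% interval -1.38 to -0.27, unadjusted p = 0.00519, adjusted p = 0.167), Klf11 1.11 (95% interval 0.16 to 2.06, adjusted p = 0.316), Klf9 0.97 (adjusted p = 0.387) and Klf7 1.20 (adjusted p = 0.406). Without SR-3420 with Dox replicate 1 the values of Klf15 and Klf11 were -1.07 (adjusted p = 0.0778) and 0.91 (adjusted p = 0.488), and those of Klf9 and Klf7 were 0.84 and 1.12 (adjusted p = 0.534 and 0.523). The call of Klf15 depended on the fit. With no filter on low counts its interaction passed at -0.87 (adjusted p = 0.0120). It also passed with a block for the replicate number, at -0.84 (adjusted p = 0.00312). Not all pairs of same-numbered libraries correlated above 0.1 in this comparison.

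Dox in DMSO, the comparison of restored with depleted ABHD5 at rest, left all 9 members short of the threshold with edgeR and DESeq2, against 1.18% of all genes that passed, and none had an unadjusted p under 0.05, against 9.83%. Klf11 had 21.2, 18.7 and 17.98 CPM with Dox, above the 11.6, 13.6 and 17.2 CPM without it, at a log2 fold change of 0.48 (95% interval -0.27 to 1.22, adjusted p = 0.710). Klf13 had 0.48 (95% interval -0.06 to 1.02) and Klf15 0.28 (95% interval -0.11 to 0.67). Klf11 was again the 1 member without overlap upwards (7.98% of all genes), and none was without overlap downwards (6.98%). The members' median was 0.04.

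**Figure D4:**
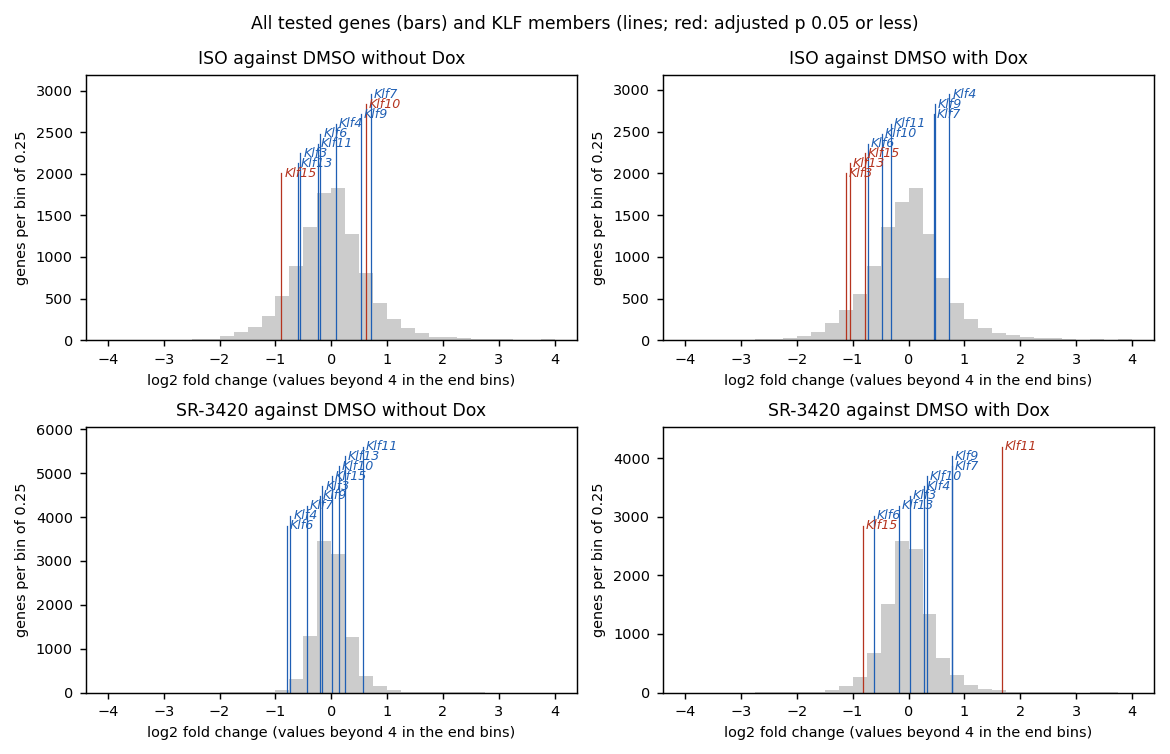
Distribution of the log2 fold changes of all 10178 genes tested (grey bars, genes per bin of 0.25) in the 4 comparisons with DMSO, with a line for each tested member, red where its adjusted p is 0.05 or less. With ISO and Dox, Klf3 at -1.12 and Klf13 at -1.04 lie in the lower tail, and with SR-3420 and Dox, Klf11 at 1.67 lies above nearly all genes.

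Across the 18 libraries the log2 CPM of the members ran together only in part. The closest pair was Klf4 and Klf9 with Pearson's r of 0.64, followed by Klf3 and Klf13 with 0.58, and the most opposed was Klf9 and Klf15 with -0.70. Outside the family, among 8045 genes with a mean of at least 20 counts, the pattern of Klf15 was most like that of Tsacc (r = 0.89, Spearman's rho 0.90), Klf11 like Twist2 (0.87 and 0.81), Klf3 like Map3k12 (0.90 in both) and Klf13 like Cc2d2a (0.91 and 0.83). The nearest to Klf9 was Scaf11 (0.84 and 0.83), to Klf10 Slc27a4 (0.78 and 0.71), to Klf7 Qrich1 (0.78 and 0.81), to Klf6 Gltscr1 (0.74 and 0.80) and to Klf4 Ripk1 (0.72 and 0.50). These values describe 18 libraries that share treatments, and each partner was the best of many genes.

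Of 7 further KLFs listed, 6 were in the table and Klf16 alone had enough counts to be tested. With ISO and Dox, 16.1% of all genes tested passed as lower. Klf16 had 15.9, 5.20 and 8.99 CPM with DMSO and Dox and 1.67, 3.15 and 7.70 CPM with ISO and Dox, with overlapping groups and a log2 fold change of -1.44 (SE 0.47, adjusted p = 0.02003). Klf2, chosen after its values were seen, was not tested and had 19, 4 and 6 counts with DMSO and Dox and 1, 0 and 0 counts with ISO and Dox. Its counted length is short, so that per kilobase these few counts gave Klf2 a mean of 5.69 CPM per kb in DMSO without Dox and 8.60 CPM per kb in DMSO with Dox, against 0.358 CPM per kb with ISO and Dox. Among 4 tested genes of the related SP family, Sp2 fell with ISO and Dox, from 18.3, 31.2 and 27.0 CPM to 10.004, 11.03 and 13.5 CPM (log2 fold change -1.08, adjusted p = 0.00471), and none passed in the other 6 comparisons.

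Of 12 genes for co-factors that KLFs recruit, all were tested. Of all genes tested, 13.5% passed as lower with ISO without Dox and 16.1% with ISO and Dox. With SR-3420 and Dox, 6.53% passed as higher. With ISO and without Dox, the acetyltransferase gene Kat2b fell (-0.91, adjusted p = 2.12e-05). With ISO and Dox 3 fell, Kat2b at -0.64 (adjusted p = 0.000685), the deacetylase gene Hdac1 at -0.60 (adjusted p = 0.0136) and the acetyltransferase gene Ep300 at -0.57 (adjusted p = 0.0164). SR-3420 with Dox raised 2, Ncor1 at 0.44 and Crebbp at 0.48, of which Crebbp did not pass without SR-3420 replicate 1 (0.41, adjusted p = 0.147), a fit for the lists that was chosen after seeing the data. The median of this list lay between -0.20 and 0.03 in the 5 direct comparisons.

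Adipogenic transcription factors moved in either direction with ISO. Of 8 tested, Pparg and Prdm16 rose and Ebf1 fell without Dox (0.55, 1.76 and -1.17), and Pparg and Prdm16 rose with Dox (1.04 and 2.17) while Rxra and Zfp423 fell (-0.99 and -0.60). With SR-3420 and Dox, Prdm16 rose (0.84, adjusted p = 0.0456), but without SR-3420 replicate 1 it did not pass (0.88, adjusted p = 0.0890). Nr3c1, the glucocorticoid receptor, did not pass in any of the 7 comparisons. Beside these counts, 14.5% of all genes tested passed as higher and 13.5% as lower with ISO without Dox. With ISO and Dox the shares were 16.4% and 16.1%, and 6.53% passed as higher with SR-3420 and Dox.

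Genes of amino acid and glucose metabolism that have been linked with KLF15 moved in either direction where it fell. Of 8 tested, ISO without Dox raised Pck1 (3.21) and lowered Bckdhb (-0.66), ISO with Dox raised Pck1 (5.35) and lowered Gpt2 (-0.99, adjusted p = 0.0452, overlapping groups), and SR-3420 with Dox raised Pck1 (2.78) and Bckdhb (0.61). Slc2a4, the gene of the glucose transporter GLUT4, was at -0.03 and 0.21 with ISO without and with Dox and at 0.44 with SR-3420 and Dox (adjusted p = 0.927, 0.365 and 0.0993). The medians of the list in the 3 comparisons where Klf15 fell were -0.12, 0.16 and 0.07. Among all genes tested, 14.5% passed as higher and 13.5% as lower with ISO without Dox. With ISO and Dox the shares were 16.4% and 16.1%, and 6.53% passed as higher with SR-3420 and Dox.

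Among 6 tested glucocorticoid targets none rose in any comparison. Of all genes tested, 16.4% passed as higher and 16.1% as lower with ISO and Dox. With SR-3420 and Dox the shares were 6.53% and 3.37%, and 14.5% passed as higher with ISO without Dox. ISO with Dox lowered 3, Fkbp5 (-0.98, adjusted p = 0.00262), Sgk1 (-2.02, adjusted p = 0.00134) and Dusp1 (-1.22, adjusted p = 0.0366), and SR-3420 with Dox lowered Sgk1 (-1.59, adjusted p = 0.0213), which did not pass without SR-3420 replicate 1 (-1.40, adjusted p = 0.115). The list's median log2 fold change was -0.67 with ISO alone, -0.44 with ISO and Dox, -0.35 with SR-3420 alone and 0.33 with SR-3420 and Dox, where the medians over all genes tested were -0.01, -0.02, -0.0034 and -0.01.

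Most of the tested immediate early genes of the cAMP response rose with ISO. Passing as higher with ISO were 14.5% of all genes tested without Dox and 16.4% with Dox, and as lower 13.5% and 16.1%. Of 7 tested, ISO raised Nr4a1, Nr4a2, Nr4a3 and Crem in either state and Atf3 with Dox, with log2 fold changes of 1.46 to 4.59 without Dox and 1.59 to 5.75 with Dox, and lowered Egr1 (-1.93 and -2.81). SR-3420 with Dox raised Atf3 (3.37) alone among them, where 6.53% of all genes tested passed as higher. Of 4 tested TGF-β response genes, the signal by which Klf10 and Klf11 were first found, ISO without Dox raised Tgif1 (0.92, adjusted p = 0.0139).

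Adipocyte and brown adipocyte markers moved with some of the same comparisons. The 6 measured markers summed to 2349 to 2549 CPM with DMSO and Dox, 4147 to 4218 CPM with ISO and Dox and 3558 to 4599 CPM with SR-3420 and Dox, where 6 and 4 of 6 passed as higher. Without Dox the sums were 1923 to 2185 CPM with DMSO, 1990 to 2272 CPM with ISO, where 1 of 6 passed in each direction, and 2918 to 3122 CPM with SR-3420, where 3 of 6 were higher. The brown adipocyte genes rose with ISO in 3 of 5 tested without Dox, with sums of 84.3 to 172 CPM in DMSO and 311 to 449 CPM in ISO, and in 4 of 5 with Dox, with sums of 152 to 187 CPM and 576 to 1234 CPM. With SR-3420 and Dox 3 of 5 rose and the sums were 187 to 380 CPM, and none of these 3, Prdm16, Cidea and Ppargc1a, passed without SR-3420 replicate 1 (adjusted p = 0.0890, 0.2196 and 0.249). The 6 preadipocyte and fibroblast genes summed to 444 to 1039 CPM over all libraries, with at most 1 of 4 tested passing in any comparison. Of all genes tested, 16.4% passed as higher with ISO and Dox and 6.53% with SR-3420 and Dox. Without Dox, 14.5% were higher and 13.5% lower with ISO, and 0.766% passed with SR-3420. The part of the marker genes in the responses of Klf3, Klf11, Klf13 and Klf15 was not tested.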

How the data were processed

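TruSeq2 libraries were made from total RNA. By the study's methods and the submitters' processing notes, the authors aligned the reads to mm9 with STAR 2.4.2a, removed duplicate positions with HOMER and counted genes with iRNA-seq. The deposited values are raw whole-number read counts. The notes also name hg19, which was not used here. Groups were read from sample titles. Genes were kept by filterByExpr over the 6 groups (minimum count 10, a limit of 8.73 CPM). TMM factors ran from 0.768 to 1.13. All 18 libraries entered a single quasi-likelihood fit in edgeR 4.0.16 (R 4.3.3) whose only terms were the 6 groups, with a biological coefficient of variation of 0.133. Tests were two-sided, and the Benjamini-Hochberg adjustment covered the 10178 tested genes, with 0.05 as threshold. Log2 CPM used a prior count of 2.

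Alternatives were other scalings (RLE, upper quartile, none), other filters (none, or a minimum of 10 counts throughout), DESeq2 1.42.0, voom in limma 3.58.1, a block for the replicate number, fits on the compared groups alone or without single libraries (for the lists, without SR-3420 with Dox replicate 1, added after seeing the data), and a fold change limit. Deviations of libraries with the same replicate number, which the sample titles give, correlated above 0.1 in all 3 pairs for ISO with Dox and for SR-3420 without and with Dox, and in 2 of 3 pairs for the other 2 direct comparisons. The members and gene lists were chosen with earlier results of these data known. Named genes are the members, up to 3 genes per list and comparison with the smallest p, Abhd5, the marker genes and, for each member, the gene with the most similar pattern. Promoter windows came from RefSeq. Values of some genes in the lists are not reported here.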

Additional observations from a re-analysis of the deposited data

Results flagged for a closer look

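For the genes given here, which are not all that passed, the response to ISO differed between cells with and without Dox by the test of the interaction itself (edgeR quasi-likelihood test). The interaction was 0.96 on the log2 scale for the adipogenic factor Ebf1 (adjusted p = 0.0273), which passed as lower with ISO only without Dox. For Bckdhb, a subunit of branched-chain amino acid breakdown, it was 1.04 (adjusted p = 0.0119), with -0.66 without Dox and 0.38 with Dox. The adipocyte markers Adipoq, Fabp4 and Cidec had 0.85, 1.92 and 1.45 (adjusted p = 0.0447, 0.0251 and 0.000397), and Abhd5 had -0.98 (adjusted p = 0.0194). No member of the KLF family was among the genes that passed this test, which had no block for the replicate number.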

How the results depend on the processing

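Of 1011 log2 fold changes of members recomputed under an alternative, 949 kept their direction and side of the threshold, 7 lost the call, 6 gained it and 49 changed sign, and of 124 counts of passing members 14 moved by more than 1.5 times. The calls of Klf15 in 3 comparisons, of Klf3 and Klf13 with ISO and Dox and of Klf11 with SR-3420 and Dox held in each refit that tested them. A minimum of 10 counts throughout left Klf3, Klf4, Klf6, Klf7, Klf9 and Klf11 untested. For ISO without Dox, the 2 passing members became 1 with upper-quartile factors (Klf10 0.57, adjusted p = 0.0667), library totals only (0.44, adjusted p = 0.184) and DESeq2, 0 with the log2 fold change limit of 1, and 1 to 2 without single libraries. For SR-3420 with Dox, 2 became 1 under that minimum and 1 under the fold change limit. For the interaction of ISO and Dox, 0 became 1 (Klf10) with the replicate block (-1.08, adjusted p = 0.0281), and 0 to 1 without single libraries. For the interaction of SR-3420 and Dox, 0 became 1 (Klf15) without a filter (-0.87, adjusted p = 0.0120) and with the replicate block (-0.84, adjusted p = 0.00312). In these interactions not all pairs of libraries correlated above 0.1, although all 18 libraries lay closest to another of their own number. Besides these and Klf9 with SR-3420 and Dox, the block changed no call. Except for the minimum of 10 counts and the fold change limit, the causes were not tested.

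Library totals only shifted the median of all genes by -0.18 and -0.14 with ISO without and with Dox, by -0.19 with SR-3420 and Dox and by -0.14 in its interaction, and upper-quartile factors by -0.12 with ISO and Dox. Signs changed only for values that did not pass. Library totals only gave -0.11 for Klf4 with ISO without Dox, -0.0459 for Klf15 with SR-3420 without Dox, -0.17 for Klf3 with SR-3420 and Dox and -0.0409 for Klf9 with Dox. Upper-quartile factors gave -0.0427 for Klf3 with SR-3420 and Dox. Limma-voom gave -0.21 for Klf4 and 0.0889 for Klf6 with ISO without Dox, -0.000964 for Klf9 with Dox and 0.0025 for Klf9 in the interaction with ISO. Without single libraries, ISO without Dox gave -0.64 to 0.53 for Klf4 and -0.56 to 0.76 for Klf6, and ISO with Dox gave -0.93 to 0.12 for Klf11. SR-3420 without Dox gave -0.38 to 0.0285 for Klf3, -1.35 to 0.16 for Klf6, -0.0661 to 0.33 for Klf10 and -0.0723 to 0.15 for Klf15, and SR-3420 with Dox gave -0.0415 to 0.13 for Klf3 and -0.40 to 0.0876 for Klf13. Dox in DMSO gave -0.55 to 0.77 for Klf6, -0.51 to 0.00132 for Klf7 and -0.0332 to 0.18 for Klf9. The interaction with ISO gave -0.53 to 0.000925 for Klf7, -0.34 to 0.18 for Klf9, -0.69 to 0.35 for Klf11 and -0.0096 to 0.36 for Klf15, and that with SR-3420 gave -0.80 to 0.73 for Klf6 and -0.00584 to 0.39 for Klf10.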
